A study of Rattus norvegicus with 8 samples.

Results

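The 5 genes described here are the acid-sensing ion channel genes Asic1, Asic2, Asic3 and Asic4 and the proton-sensing receptor gene Gpr65. They were taken by gene name from the 30560 genes of a single-nucleus RNA table of rat nodose ganglia, and all 5 had a row in it. The ganglia came from experimentally naive Long Evans rats, 8 weeks old, 18 male and 18 female, with the left and the right ganglion kept apart. Each of 12 pools held the left or the right ganglia of 6 rats, with 3 pools for each sex and side (ML1 to ML3 for male left, MR for male right, FL for female left and FR for female right). Nuclei were fixed, barcoded by split pooling and divided into 8 sublibraries, each of which held at least 196 nuclei of every pool, so that the pools and not the deposited sublibraries are the replicates of a condition. With 3 pools of 6 rats on each side, the left and the right pools of a sex drew on the same 18 rats. The labels do not say which left and right pools hold the same rats, so the tests of side took left and right pools as independent. A pool gives 1 value for its 6 rats.

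Protons released by ischaemic, inflamed or hard-working tissue, or taken in with acidic gut content, are sensed by vagal afferent neurons. ASIC subunits assemble as trimers into sodium channels that open when the outside of the cell acidifies. Asic1 and Asic3 encode proton-gated subunits, Asic2 encodes a subunit that is less sensitive to protons and sets the properties of mixed channels, and Asic4 encodes a subunit that does not form a proton-gated channel on its own. Gpr65 encodes a G protein-coupled receptor that is activated by protons and raises cyclic AMP. It was described first in lymphocytes and later in vagal neurons that supply the gut. The nodose ganglion, of placodal origin, is fused in rodents with the jugular ganglion, of neural crest origin, and a dissection can hold both kinds of neuron.

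After 1 nucleus was removed for too few genes and 2 as called doublets, 36738 nuclei were kept, with a median of 2680 unique molecular identifiers (UMIs, counted transcript molecules) per nucleus. Pools held 1738 to 4849 nuclei and 7139364 to 19456287 UMIs. Y-linked transcripts did not match the labelled sex of 2 pools. ML1 had 2.88 CPM (UMIs of a gene or list among 1000000 UMIs of all genes in the same nuclei) where the 5 other male-labelled pools had 84.4 to 91.3, and FL1 had 88.6 where the other female-labelled pools had 2.73 to 3.95. Sex is therefore given as labelled. The 24692 neurons fell into 23 subclusters, of which 13 were nodose-like (19407 nuclei), 5 jugular-like (2371 nuclei) and 5 unnamed (2914 nuclei), from marker genes; the 5 genes and the other acid-related genes took no part in the clustering or naming. Prdm12, a neural crest sensory transcription factor, was counted at 104.8 CPM in jugular-like and 0.703 CPM in nodose-like nuclei. It was 1 of the markers that named the jugular-like subclusters, so this difference follows from the naming and does not support it. The unnamed subclusters n18 and n22 also passed the marker threshold for Prdm12, but with too few other jugular markers to be named. The jugular-like share of the neurons ranged from 2.24% in ML3 to 21.9% in ML1. Neuronal RNA was present in other classes: Snap25, a neuronal vesicle-fusion gene, stood at 1670 CPM in neurons, 1148 in satellite glia, 568.3 in myelinating Schwann cells and 396 in vascular nuclei.

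Asic1 was higher in jugular-like than in nodose-like neurons in 12 of 12 pools. Its level in the 12 pools was lowest at 132.1 CPM (FL1), had a median of 200.5 and was highest at 289.7 (ML1) in jugular-like neurons. In nodose-like neurons it was 4.29, 6.45 and 8.26 CPM in the same order. No pool's nodose-like value came near any jugular-like value, and the jugular-like neurons, 2371 of 24692, held 69.8% of the Asic1 UMIs of neurons. The log2 fold change was 4.95 ± 0.08 (SE; edgeR quasi-likelihood test with the pool as a block, adjusted p = 5.58e-33). In this comparison 20.9% of 11542 genes were called higher and 18.8% lower in jugular-like neurons at an adjusted p of 0.05. Of the 4 tested members, 2 were called higher (Asic1 and Asic3) and 2 lower (Asic2 and Gpr65).

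Within the jugular-like neurons, Asic1 was highest in the largest subcluster, led by Tac1, Calca and Gfra3 (n6 in the plot of subcluster levels), the peptidergic type. There its level was 250.5 ± 46.2 CPM (SD, n = 12), with a lowest pool of 197.1 and a highest of 335.6. The subcluster held 5.91% of the neurons and 59.0% of their Asic1 UMIs. The next subcluster present in all pools, led by Spp1, Kcna1 and Nefh (n21, jugular-like), had 155.3 ± 96.5 CPM (SD, n = 12) and ranged from 39.5 to 403.6. The first exceeded the second in 11 of 12 pools (exact two-sided sign-flip permutation test, adjusted p = 0.022 over the 15 neighbour pairs tested for the 5 genes). For all 5 genes the pairs were picked from the order of means in these same pools, which the test does not allow for. The unnamed subcluster led by Gabrg1 and Syndig1 (n20) followed with 78.8 ± 23.2 CPM and the nodose-like subcluster led by Pappa2 and Csmd3 (n15) with 60.2 ± 26.8 (SD, n = 12). Neither of these steps passed the test: the adjusted p of the exact permutation test was 0.0714 from n21 to n20, with 9 of 12 pools higher, and 0.184 from n20 to n15. Without ML2 or without ML3 the step from n21 to n20 did pass, with an adjusted p of 0.033 and 0.0476. A jugular-like subcluster led by Trpm8, the cold and menthol channel (n23, 184 nuclei, absent from at least 1 pool), had 112 Asic1 UMIs, or 245.7 CPM over all pools together. The placodal subclusters led by Itgae held almost none: 2.75 ± 3.26 CPM in n2 and 2.89 ± 2.06 in n11 (SD, n = 12).

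**Figure D1:**
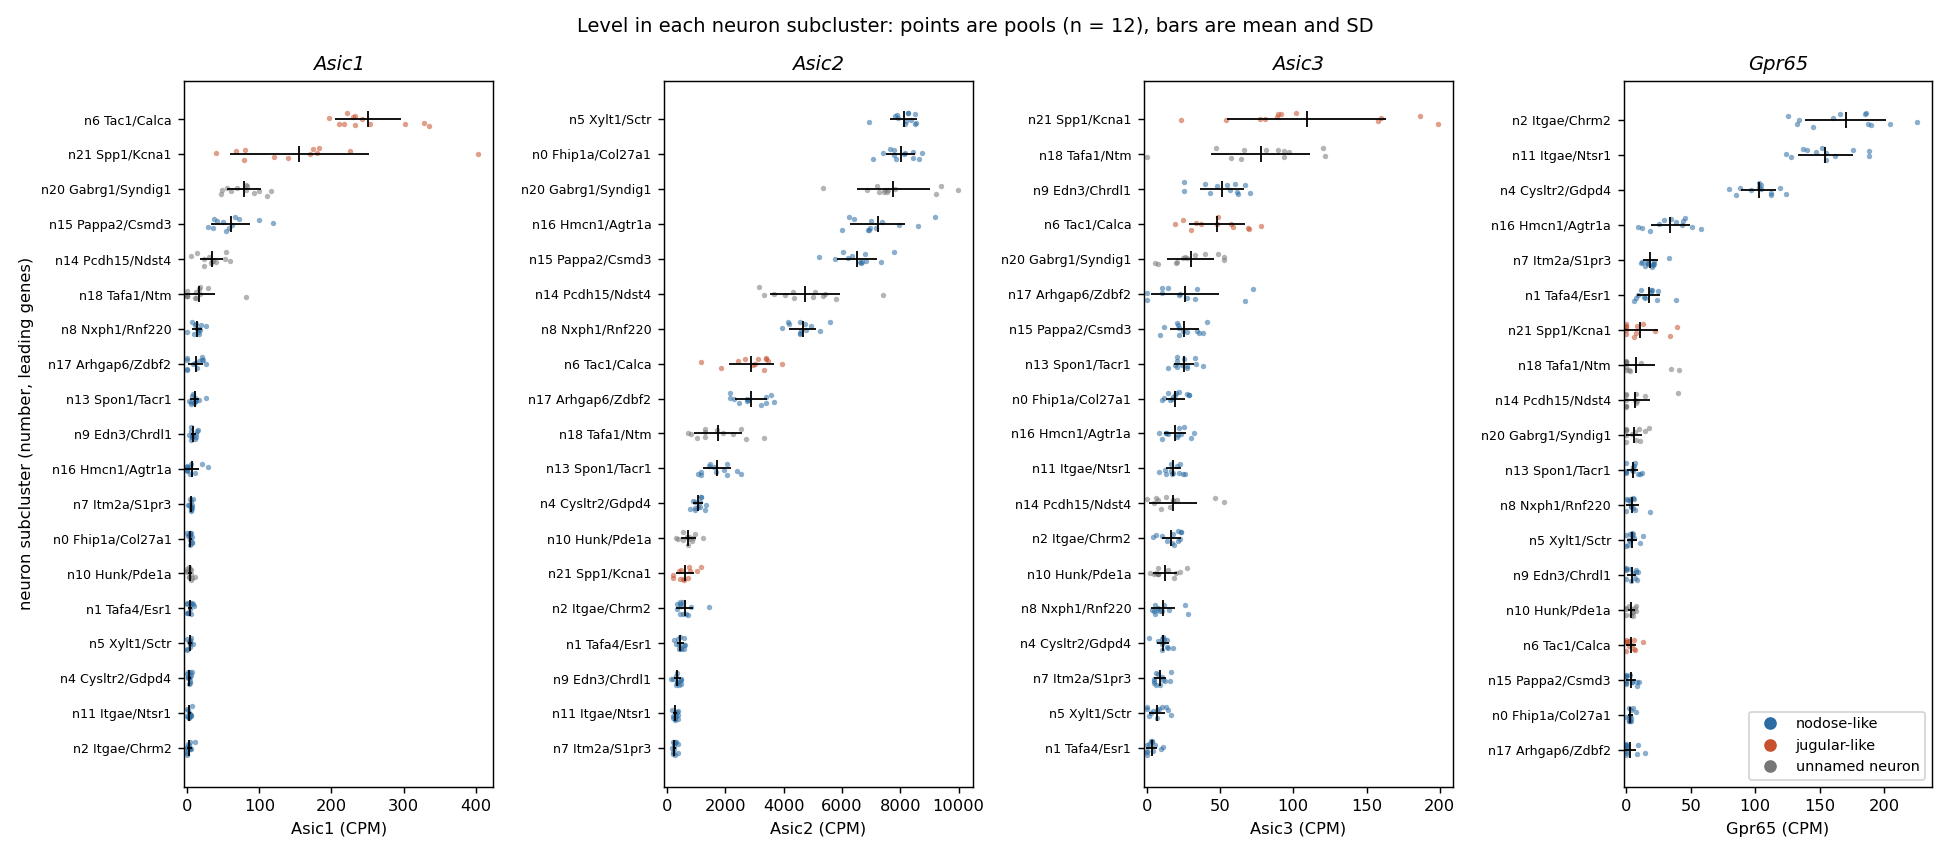
Level of Asic1, Asic2, Asic3 and Gpr65 in CPM (linear axes, a different scale in each panel) in the 19 neuron subclusters present in all 12 pools, ordered by mean; points are pools, black bars the mean and SD, colours the kind of neuron. Asic1 peaks in the jugular-like subcluster n6 (250.5 CPM), Asic2 is spread over many nodose-like subclusters, Asic3 has its highest mean in the jugular-like n21, and Gpr65 is high in n2, n11 and n4.

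The share of nuclei with at least 1 Asic1 UMI gave the same order between the 2 kinds of neuron. After each nucleus was thinned to 1000 UMIs, which kept 2253 of the 2371 jugular-like nuclei, the share was 15.98% in jugular-like neurons and 0.647% in nodose-like neurons. Without thinning it was 36.4% and 2.32%, at median depths of 2535 and 3000 UMIs. The jugular-like subclusters were not alike. The thinned share was 21.2% in n23, 19.5% in n6 and 16.3% in n21. It was 1.85% in n26 (led by Il31ra, 57 nuclei) and 0.888% in n19 (led by Htr4, Hs6st2 and Gna14, 357 nuclei). Vascular nuclei had 1.05% thinned and 1.59% unthinned at a median of 1643 UMIs, and whether they lack the gene was not tested. The thinned share in nodose-like neurons as a whole was not above that of vascular nuclei. Among nodose-like subclusters, n15 had the highest thinned share, at 4.73% (31 of 655 nuclei).

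The Asic1 level over all neurons of a pool is given here beside its jugular-like share. Since jugular-like neurons held 69.8% of the Asic1 UMIs of neurons, this level rises with that share by construction, and the values restate the difference between the kinds of neuron. Over all neurons of a pool the level was lowest at 10.6 CPM in FL1, had a median of 24.7 and was highest at 71.8 in ML1. The pools with the lowest shares (ML3, FR2 and FL1) had 12.2, 13.2 and 10.6 CPM, and the pools with the highest shares (ML1 and FL2) had 71.8 and 45.8.

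**Figure D2:**
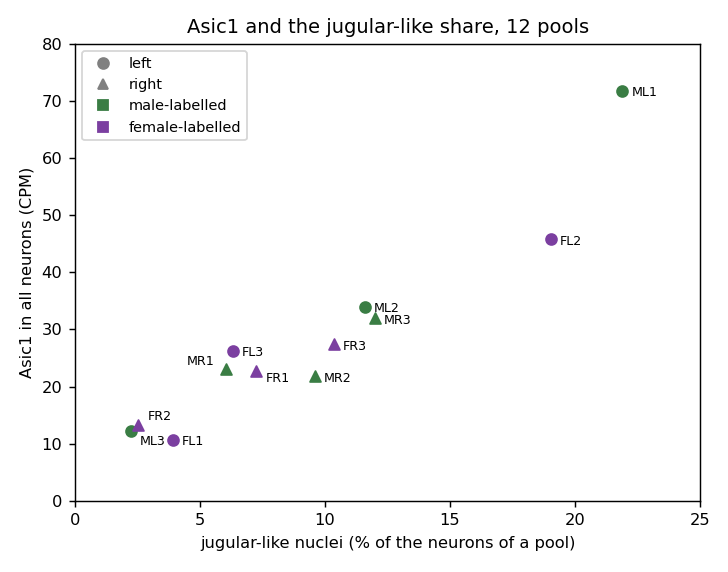
Asic1 level in all neurons of a pool (CPM) against the share of jugular-like nuclei among its neurons (%), 12 pools; circles are left and triangles right pools, green male-labelled and purple female-labelled. ML1 and FL2 sit at the upper right (71.8 and 45.8 CPM) and ML3, FR2 and FL1 at the lower left (10.6 to 13.2 CPM).

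Asic2 had 333909 UMIs and was counted in every neuron subcluster. Its level varied widely between subclusters. The nodose-like subclusters led by Xylt1, Sctr, Cckar and Chrna3 (n5) and by Fhip1a, Col27a1 and Kirrel3 (n0) had 8115 ± 450.4 and 8007 ± 511.4 CPM, and those led by Itm2a and S1pr3 (n7) and by Itgae and Ntsr1 (n11) had 260.4 ± 66.5 and 287.1 ± 66.5 (SD, n = 12). The lowest pool of n5, at 6914 CPM, was far above the highest pool of n7, at 382.3. Together n0 and n5 held 48.2% of the Asic2 UMIs of neurons and 22.2% of the neurons. The order among the highest subclusters could not be told apart: n5 against n0, n0 against n20 (7766 ± 1253 CPM) and n20 against n16 (7228 ± 945 CPM, led by Hmcn1, Agtr1a and Ntrk3) had adjusted p values of 0.703, 0.703 and 0.275 in the exact permutation test over 12 pools.

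Both kinds of neuron had Asic2. The level in nodose-like neurons had a lowest pool of 2294 CPM, a median of 2941 and a highest of 3339, and in jugular-like neurons 959.4 (FR2), 2379 and 2981. The ranges overlapped, and the jugular-like value was the lower one in 10 of 12 pools. The gene was called lower in jugular-like neurons, with a log2 fold change of -0.37 ± 0.09 (SE; edgeR, adjusted p = 0.00113), a difference that was lost with coarser clusters (-0.21 at resolution 0.5, adjusted p = 0.0523). Among jugular-like subclusters, n6 had 2897 ± 778 CPM and n21 had 613.9 ± 300.5 (SD, n = 12).

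Asic3 was low in all neurons, with 1982 UMIs in 24692 nuclei. In jugular-like neurons its lowest pool had 24.1 CPM (MR2), the median was 54.1 and the highest was 70.9 (FR2), and in nodose-like neurons the values were 10.95 (ML3), 15.7 and 22.6 (ML1). The ranges did not overlap. The log2 fold change was 1.59 ± 0.12 (SE; edgeR, adjusted p = 3.35e-14). By subcluster the highest means were those of n21 (Spp1, Kcna1 and Nefh) with 109.2 ± 54.2 CPM, the unnamed n18 (Tafa1, Ntm and Ccdc172) with 77.7 ± 33.7, the nodose-like n9 (Edn3, Chrdl1 and Kcng1) with 51.2 ± 15.1 and n6 with 48.0 ± 19.1 (SD, n = 12). None of the 3 steps in this order passed the exact permutation test, with adjusted p values of 0.203, 0.0791 and 0.726, although n18 exceeded n9 in 11 of 12 pools and the step passed without FR1 (adjusted p = 0.00488). The means of n21 and n18 rest on few counts, 115 and 150 Asic3 UMIs over all pools. Their smallest pools held 11 and 4 nuclei, and each pool had the same weight in the mean and the test. The lowest mean of Asic3 was 3.48 ± 3.78 CPM, in the nodose-like n1 (Tafa4, Esr1 and Crhr2). In the jugular-like n19, absent from at least 1 pool, 0.296% of nuclei thinned to 1000 UMIs had an Asic3 UMI.

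Asic4 was at the limit of detection. It had 35 UMIs in 35 of the 36738 nuclei, of which 19 were in neurons, and no pool had more than 3 in its neurons. Its level in neurons was 0.200 CPM (exact Poisson 95% interval 0.121 to 0.313, counting error only), and the gene did not pass the low-count filter of the edgeR fits, so it has no test between classes, sides or sexes. Its 3 steps between neighbouring subclusters had an adjusted p of 0.865 to 1 (exact sign-flip permutation test). Vascular nuclei had 0 Asic4 UMIs, which allows up to 1.71 CPM at their depth.

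Gpr65 was higher in nodose-like than in jugular-like neurons in 12 of 12 pools. Its level in nodose-like neurons was lowest at 38.7 CPM (FR2), had a median of 52.0 and was highest at 68.3 (ML3). In jugular-like neurons the lowest was 0, the median 3.69 and the highest 28.4 (FR2, 6 UMIs in 56 nuclei). The ranges did not overlap. The log2 fold change was -3.44 ± 0.19 for jugular-like over nodose-like (SE; edgeR, adjusted p = 8.01e-18), and nodose-like neurons held 97.6% of the Gpr65 UMIs of neurons.

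The gene was carried by 3 nodose-like subclusters. The subcluster led by Itgae, Chrm2 and Kcnh8 (n2) had 170.1 ± 31.6 CPM, that led by Itgae, Ntsr1 and Cyp26b1 (n11) had 154.3 ± 21.4, and that led by Cysltr2, Gdpd4 and Shisa6 (n4) had 102.7 ± 13.6 (SD, n = 12). These 3 subclusters, 19.2% of the neurons, held 83.9% of the Gpr65 UMIs of neurons. The order of n2 and n11 could not be told apart (n2 higher in 8 of 12 pools, exact permutation test, adjusted p = 0.266). Both n11 over n4 and n4 over the next subcluster, n16 with 34.1 ± 15.4 CPM, held in 12 of 12 pools (exact permutation test, adjusted p = 0.00366 for each). After thinning to 1000 UMIs, a Gpr65 UMI was found in 15.5% of n11, 14.9% of n2 and 8.23% of n4 nuclei, against 0.399% of jugular-like and 0.450% of vascular nuclei. Without thinning, the share was 1.52% in jugular-like neurons, 1.46% in vascular nuclei, 3.79% in satellite glia and 5.73% in skeletal muscle.

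Gpr65 is also a gene of immune cells, so 32 macrophage, T cell, B cell, mast cell and neutrophil markers were summed in the same nuclei. Their sum was 29.6 ± 14.1 CPM in n2, 23.2 ± 5.32 in n11 and 21.4 ± 6.37 in n4 (SD, n = 12), which are the 3 lowest of the 19 subclusters present in all pools, and 49.8 ± 6.08 over all neurons. Ptprc, the pan-leukocyte gene, was at 1.58, 1.46 and 0.917 CPM in n2, n11 and n4, with 9, 12 and 9 UMIs. The part of immune cell RNA in the Gpr65 values was not tested.

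In the RefSeq annotation of another rat build (GRCr8), Gpr65 overlaps Galc, which encodes the lysosomal galactosylceramidase, and Racgap1, a cell-division gene, is the nearest protein-coding gene on one side of Asic1. Galc was highest in n16, at 356.4 ± 52.5 CPM, where Gpr65 had 34.1, and stood at 199.4 ± 40.2, 175.4 ± 26.4 and 81.8 ± 18.1 in n2, n11 and n4 (SD, n = 12). Over the neuron subclusters Galc had a Pearson's r of 0.76 with Gpr65. It was at 94.5 CPM in nodose-like and 28.3 in jugular-like neurons. Myelinating Schwann cells had 41.3 CPM of Galc and 4.78 CPM of Gpr65. Whether the counting used strand is not given in the sources used here, so reads from overlapping genes may not be told apart. Racgap1 was at 49.5 CPM in jugular-like and 2.87 in nodose-like neurons, and the part that its position plays was not tested.

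Outside the neurons, only satellite glia and myelinating Schwann cells were tested, and all 4 tested genes were lower there than in neurons. Against satellite glia, the 12 pools' neurons had a log2 fold change of 1.01 ± 0.16 for Asic1 (adjusted p = 8.6e-07), 1.76 ± 0.06 for Asic2 (adjusted p = 7.28e-26), 0.51 ± 0.14 for Asic3 (adjusted p = 0.00129) and 1.84 ± 0.14 for Gpr65 (adjusted p = 1.45e-14; SE, edgeR with the pool as a block). That is 4 of 4 tested members called higher, where 34.3% of 11963 genes were. Against myelinating Schwann cells the log2 fold changes were 2.17 ± 0.23, 2.17 ± 0.06, 1.74 ± 0.23 and 3.19 ± 0.22, again 4 of 4 called higher (edgeR, largest adjusted p = 8.67e-10), where 35.4% of 11761 genes were.

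The glial levels are given beside those of neuronal RNA. In satellite glia Asic2 had a lowest pool of 696.5 CPM, a median of 910.8 and a highest of 1370.4, and every pool was below the lowest neuron value of 2289. The 11 neuron markers, which served to name the neurons and so support nothing, had a median log2 fold change of 0.73 between neurons and satellite glia and 1.75 between neurons and myelinating Schwann cells. They were not alike: against satellite glia 7 were called higher and 3 lower in neurons, with log2 fold changes from -0.57 to 1.78 (edgeR). Against myelinating Schwann cells all 11 were called higher (0.52 to 2.44). Asic2 was counted at 1.71 UMIs for each Snap25 UMI in neurons, 0.819 in satellite glia, 1.31 in myelinating Schwann cells and 1.68 in vascular nuclei. Of these the ratio was lowest in satellite glia and nearest to the neuronal one in vascular nuclei. The thinned share of nuclei with an Asic2 UMI was 53.4% in neurons, 43.6% in satellite glia, 35.9% in myelinating Schwann cells and 34.7% in vascular nuclei, and the part of carried-over neuronal RNA in the glial values was not tested.

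**Figure D3:**
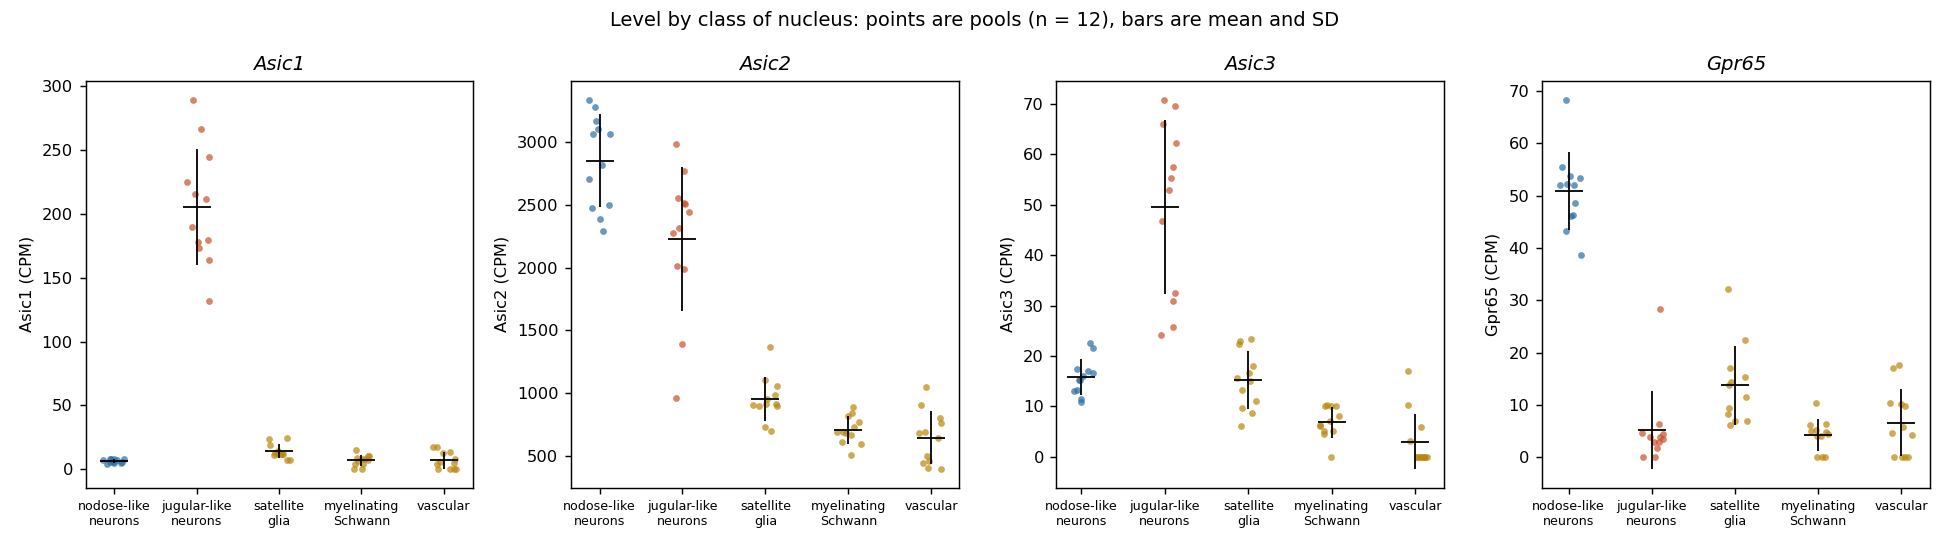
Level of Asic1, Asic2, Asic3 and Gpr65 (CPM, linear axes, a different scale in each panel) in nodose-like and jugular-like neurons, satellite glia, myelinating Schwann cells and vascular nuclei; points are the 12 pools, black bars the mean and SD. Asic1 stands out in jugular-like neurons (132.1 to 289.7 CPM) and Gpr65 in nodose-like neurons (38.7 to 68.3 CPM), while Asic2 is high in both.

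The study's design compares left with right and male with female ganglia. Asic2 was higher on the right in the sum over neurons, without passing the adjusted threshold in the edgeR fit. The 6 left pools had a lowest of 2289 CPM (FL1), a median of 2567 and a highest of 2987 (ML2), and the 6 right pools 2935 (MR2), 3095 and 3369.9 (MR1). Only ML2 among the left pools reached into the range of the right pools. The log2 fold change, right over left, was 0.26 ± 0.06 (SE; edgeR, adjusted p = 0.103). Of the 4 tested members 0 were called between sides, where 0.158% of 13893 genes were; 1 had p under 0.05 before adjustment, as did 969 of all genes, and 1 was called by DESeq2, as were 61 of all genes. That gene was Asic2, with an adjusted p of 0.00344 in DESeq2, 0.00743 in edgeR with no low-count filter and 0.0284 in edgeR without ML2, so its call turned on the tool, the filter and 1 pool.

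The share of 1 Asic2-rich subcluster among the neurons also differed between sides. This subcluster, n5, made up 4.94 ± 1.11% of the neurons of left pools (3.04 to 6.26%) and 8.60 ± 1.03% of those of right pools (7.59 to 10.1%; SD, n = 6), with no overlap. The side ranges of every other neuron subcluster overlapped, among them the Asic2-rich n0 (10.9 to 17.4% left, 13.8 to 19.1% right). Shares were not tested, and n5 was picked for its Asic2 level. Within n5 the Asic2 level was 8049.7 ± 613.2 CPM in left and 8179.5 ± 245.3 in right pools (SD, n = 6), a log2 fold change of 0.02 ± 0.06 (SE; edgeR, adjusted p = 0.994; 0.0137% of 7317 genes called in that subcluster, Asic2 not among them). When every pool was given the same makeup, the mean share of UMIs of each of 19 subclusters, the log2 ratio of the mean right to the mean left level fell from 0.27 to 0.06, with 2826 ± 191 CPM for left and 2948 ± 127 for right pools (SD, n = 6), and the ranges overlapped. Of the 19 subclusters, 14 had a higher and 5 a lower mean on the right, and in 0 of them were the sides apart. In the sum over neurons, fewer nuclei of a type and less RNA per nucleus cannot be told apart.

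**Figure D4:**
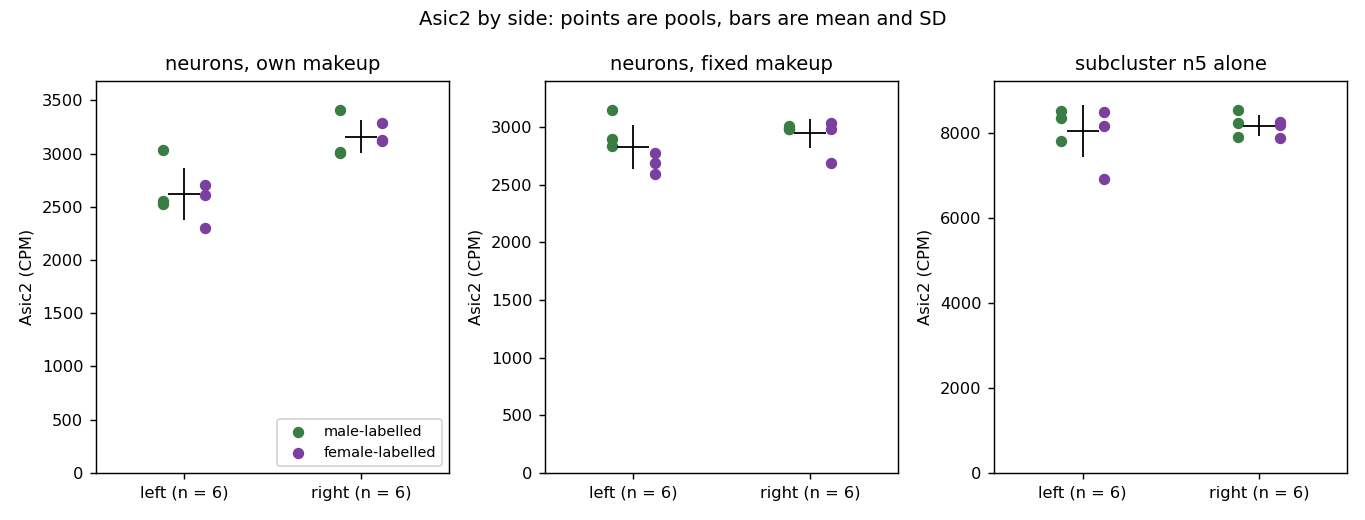
Asic2 level (CPM, axes from 0) by side in the neurons of these 19 subclusters at each pool's own makeup, at 1 fixed makeup for every pool, and in subcluster n5 alone; points are pools, green male-labelled and purple female-labelled, bars the mean and SD (n = 6 per side). The log2 ratio of the mean right to the mean left level is 0.27 at the pools' own makeup and 0.06 at the fixed makeup, and the ranges of the sides overlap at both.

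The other members overlapped between sides. Asic1 in neurons was 33.4 ± 23.0 CPM in left pools and 23.4 ± 6.27 in right ones (SD, n = 6), with a log2 fold change of -0.52 ± 0.35 (edgeR, adjusted p = 0.824). It was -0.13 without ML1 and -0.32 without FL2, and 0.10 in nodose-like neurons alone. With a fixed makeup of subclusters the 2 means were 26.8 ± 4.79 and 25.7 ± 2.50 CPM. Asic3 was 21.7 ± 8.33 and 18.6 ± 3.23 CPM (SD, n = 6; log2 fold change -0.27 ± 0.20, edgeR, adjusted p = 0.842), and the fold change was -0.00395 without ML1. Gpr65 was 44.6 ± 8.88 in left pools and 38.2 ± 2.47 in right ones (SD, n = 6; log2 fold change -0.23 ± 0.11, edgeR, adjusted p = 0.715), with -0.12 without ML3. It was, in n2, its leading subcluster, 173.9 ± 28.4 and 166.4 ± 36.9 CPM (log2 fold change -0.04 ± 0.12, edgeR, adjusted p = 0.984; 1.19% of 6227 genes called there). The leading subclusters of Asic1 and Asic3, n6 and n21, had under 20 nuclei in at least 1 pool and were not tested by side. In n6 Asic1 stood at 270.9 ± 57.6 CPM in left pools and 230.2 ± 19.4 in right ones (SD, n = 6).

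**Figure D5:**
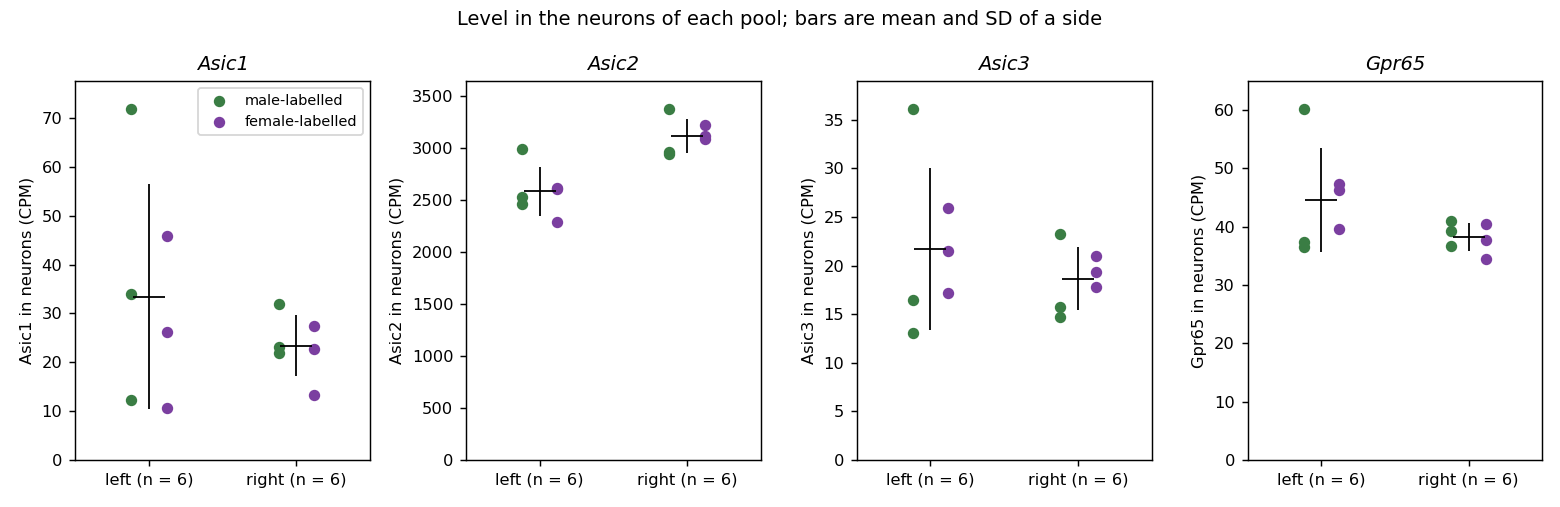
Level of Asic1, Asic2, Asic3 and Gpr65 in all neurons of each pool (CPM, axes from 0) by side; green points are male-labelled and purple female-labelled pools, bars the mean and SD of a side (n = 6). Asic2 is higher in right pools with 1 left pool reaching into their range, and the other genes overlap between sides.

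Between the labelled sexes 0 of 4 tested members were called in neurons, where 0.0504% of 13893 genes were (edgeR). At an unadjusted p under 0.05 there were 0 members and 2574 genes, and DESeq2 called 0 members and 417 genes. Asic1 was 32.5 ± 20.8 CPM in the male-labelled pools against 24.3 ± 12.5 in those labelled female, and the same pair of values was, for Asic2, 2872 ± 336 and 2818 ± 370, for Asic3 19.9 ± 8.68 and 20.5 ± 3.16, and for Gpr65 41.8 ± 9.14 and 41.0 ± 4.99 (SD, n = 6). Without ML1 and FL1, whose Y-linked transcripts went against the labels, edgeR called 0 members as well, and the log2 fold change of Asic1, female-labelled over male-labelled, went from -0.48 to 0.07 and that of Asic3 from -0.01 to 0.33. The difference between sexes in the side effect gave 0 members and 0% of 13893 genes called (edgeR, 0 members and 596 genes at an unadjusted p under 0.05, and 0 of either by DESeq2). In satellite glia 0 of 4 tested members were called by side, where 0.0116% of 8642 genes were, and 0 by sex, where 0% of genes were (edgeR; 0 members at an unadjusted p under 0.05 in either and 0 by DESeq2, with 496 and 548 genes at an unadjusted p under 0.05).

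The 8 sublibraries, which each held a part of the nuclei of every pool, gave a measure of spread between libraries alone. It does not cover the dissection or preparation of the pools. Asic2 in neurons ranged from 2687 to 2940.0 CPM over them and Gpr65 from 37.4 to 44.5, against 2289 to 3369.9 and 34.4 to 60.2 over the 12 pools. Asic1 ranged from 23.7 to 35.8 CPM over sublibraries and from 10.6 to 71.8 over pools.

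Other acid-related genes were described from 4 lists. Of 10 other proton sensors, 4 were tested between jugular-like and nodose-like neurons, with 2 called higher and 1 lower and a median log2 fold change of 0.41, beside 0.01 over all genes tested. Gpr4, a proton-sensing relative of Gpr65, was lower in jugular-like neurons (log2 fold change -2.21 ± 0.41, SE; edgeR, adjusted p = 2.6e-05). Trpv1, the capsaicin receptor, which protons also open, was higher (0.84 ± 0.08, edgeR, adjusted p = 8.15e-11), with 136.9 ± 30.4 CPM in jugular-like and 79.8 ± 8.67 in nodose-like neurons (SD, n = 12). Gpr132 had 147 UMIs and Asic5 had 2 in neurons, and neither was tested in this comparison.

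Of the 4 sensors tested between neurons and satellite glia, 3 were called higher in neurons and 1 lower. Pacc1, a proton-activated chloride channel, Gpr4 and Trpv1 were the 3 higher ones (edgeR), with log2 fold changes of 0.90, 0.85 and 0.77. Against myelinating Schwann cells 3 of 4 sensors were called higher, among them Trpv1 (1.12 ± 0.11, edgeR, adjusted p = 3.51e-14) and Gpr4 (1.06 ± 0.45, edgeR, adjusted p = 0.0321).

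Acid-sensitive two-pore potassium channels set the resting potential and are closed or opened by protons. All 6 were tested between kinds of neuron, with 2 called higher in jugular-like neurons, Kcnk2 (log2 fold change 1.54) and Kcnk18 (1.52), and 4 lower, led by Kcnk9 (-2.07) and Kcnk3 (-1.47; edgeR, largest adjusted p of these 4, 3.54e-10). The list's median was -0.54, beside 0.01 over all genes. All 6 were called higher in neurons than in satellite glia, led by Kcnk10 (2.44) and Kcnk18 (2.09). Against myelinating Schwann cells 5 were called higher, led by Kcnk10 (2.67) and Kcnk18 (1.70), and Kcnk1 was lower in neurons (-2.04 ± 0.13, edgeR, adjusted p = 5.45e-23).

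Of 4 partners of ASIC channels, Stoml3 had no entry by name and 3 were tested. Stom, which encodes stomatin, a membrane protein that binds ASIC subunits, was lower in jugular-like neurons (-2.47 ± 0.17, edgeR, adjusted p = 1.01e-14) and higher in neurons than in satellite glia (0.57 ± 0.11, adjusted p = 3.25e-05) and than in myelinating Schwann cells (1.70 ± 0.19, adjusted p = 1.49e-12). Stoml1 was higher in neurons than in myelinating Schwann cells (0.78 ± 0.17, edgeR, adjusted p = 6.63e-05). Of 6 genes of acid-base transport, 1 was called higher in jugular-like neurons, the bicarbonate cotransporter Slc4a4 (1.57), and 3 lower, led by Slc4a10 (-1.39) and Slc4a7 (-1.33; edgeR, largest adjusted p of these 3, 1.14e-13). Slc4a4 was lower in neurons than in satellite glia (-2.60 ± 0.07, edgeR, adjusted p = 2.82e-28), where the other 5 were called higher in neurons, led by Slc4a10 (1.70) and Slc4a8 (1.57). Against myelinating Schwann cells 5 of 6 were called higher in neurons, led by Slc4a8 (2.18) and Slc4a10 (2.17). By side, by sex and in their interaction, edgeR called 0 of the 20 tested genes of these lists in neurons, with 4, 5 and 1 of them at p under 0.05 before adjustment, where 969, 2574 and 596 of all 13893 genes were. DESeq2 called 0, 2 and 0 of them and 61, 417 and 0 of all genes. The 2 called by sex, named after their values were seen, were Kcnk3 and Slc4a4.

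The genes whose pattern was most like that of each member were ranked by Pearson's r of log2(CPM + 1) over the 23 neuron subclusters, among 10752 genes with a mean of at least 5 CPM. The subclusters share pools and libraries, and the values are a description. For Asic1 they were Racgap1 (0.92), Tac1 (0.86), Rph3a (0.86), Edil3 (0.83) and Ust (0.82). For Asic2 they were Grb14 (0.81), Acot11 (0.79), Npas3 (0.74), Nova1 (0.74) and Tmem132d (0.73). For Asic3 the named ones were Kcnip3 (0.80), Sfrp1 (0.77) and Entpd4 (0.76), beside 2 genes without a name. For Gpr65 they were Nlrx1 (0.84), Itgae (0.84), Iqgap2 (0.82), Tes (0.81) and Ntsr1 (0.79). Tac1, Itgae and Ntsr1 are leading genes of the subclusters where Asic1 and Gpr65 were highest. The ranking for Asic4, led by Pds5a (0.60) and Srsf6 (0.59) among named genes, rests on 19 UMIs. Among the members themselves r was -0.55 between Asic1 and Gpr65, 0.43 between Asic1 and Asic3, 0.16 between Asic1 and Asic2 and 0.08 between Asic2 and Asic3.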

How the data were processed

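The deposited table holds raw UMI counts per gene and nucleus, made by the authors from split-pool libraries. The submitters' processing notes name the build mRatBN7.2, R 4.3.2 and Seurat 4.1.3; an aligner and the use of strand were not stated by any source at hand. The deposited samples are 8 sublibraries that each hold all pools, so UMI counts were summed by pool, and each nucleus took its pool from the deposited annotation of barcodes. Across sublibraries, 1865 of 34798 well combinations recurred (3808 nuclei), and 0 barcodes were repeated once the sublibrary was added.

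Nuclei with fewer than 300 genes or more than 5% mitochondrial UMIs were left out. The doublet caller marked 2 nuclei, so it hardly worked and doublets remain. Nuclei were clustered with scanpy 1.11.5 at resolution 1 on 30 components without the 5 genes and the other acid-related genes, and named from marker lists. The rules for names were settled after the clusters were seen, and the members and lists were chosen with earlier results of these data known. Clusters of mixed or unclear markers were left out of the comparisons.

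Pool sums were tested with edgeR 4.0.16 in R 4.3.3 (quasi-likelihood test, TMM, filterByExpr, Benjamini-Hochberg over all genes tested), with side and labelled sex as terms, or with the pool as a block between classes. Neighbouring subclusters were compared within pools by an exact sign-flip test (scipy 1.17.1, numpy 2.4.6), Benjamini-Hochberg over 15 pairs. The pairs came from a ranking of the same pool values, so their adjusted p values do not cover that choice. The tests were tested on simulated data. DESeq2 1.42.0, other normalization, no low-count filter, other clusterings and leaving out pools were alternatives. Intervals and limits from a count of 0 (3 UMIs) cover counting error only. Each pool holds ganglia of 6 rats, and the left and right pools of a sex come from the same 18 rats, which the tests of side do not model.

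Named were all 5 members, Trpv1, Gpr4, Gpr132 and Asic5, in each comparison the 2 called genes of each list with the largest change in each direction, and the 5 genes most like each member, leaving out genes not reported here. Galc and Snap25 were chosen after their values were seen. RefSeq's table is of another build and was used for names and neighbours alone.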

Additional observations from a re-analysis of the deposited data

Results flagged for a closer look

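In 84 groups of pools or sublibraries, many of which share pools, 7 values stood apart from the rest of their group, where chance alone gives about 1 in 20. Asic1 in neurons stood apart in ML1 among the 6 male-labelled pools, at 71.8 CPM, and ML1 also had the highest jugular-like share (21.9% of neurons). Gpr65 in neurons stood apart in ML3 among the male-labelled pools, at 60.2 CPM, and in nodose-like neurons of ML3 among the 6 left pools, at 68.3 CPM. Asic3 in nodose-like neurons stood apart in FL3 among the female-labelled pools, at 21.7 CPM. Gpr65 in jugular-like neurons stood apart in FR2, at 28.4 CPM, both among the right pools and among the female-labelled pools, from 6 UMIs in 56 nuclei. Asic1 in satellite glia stood apart in FL2 among the female-labelled pools, at 23.4 CPM.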

How the results depend on the processing

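The calls between classes of nuclei and between jugular-like and nodose-like neurons kept their direction and threshold for the 4 tested members in all alternatives, apart from Asic2 between kinds of neuron at resolution 0.5. Between sides in neurons, the number of members called was 0 in the edgeR fit and 1 with DESeq2, with no low-count filter and with nodose-like neurons alone (an alternative chosen after seeing the data), and 0 to 1 when pools were left out in turn, 1 without ML2. That member was Asic2, whose adjusted p over all alternatives ran from 0.00203 to 0.559, the highest without ML1 and FL1; the cause was not tested. By side, Asic1 ran from -0.72 to 0.10 over the alternatives (lowest adjusted p 0.683), the latter in nodose-like neurons alone, and the changes of Asic3 and Gpr65 also moved by over 1.5 times when ML1 and ML3, respectively, were left out. The other side and sex comparisons gave 0 members with each pool left out, and the class comparisons 4. In the order of subclusters, 3 of 15 pairs passed, and 3 to 4 with pools left out. Without thinning and at 2000 UMIs, the share of neurons with a UMI was 6.31% and 4.05% for Asic1, 70.6% and 60.6% for Asic2, 6.61% and 3.56% for Asic3 and 9.93% and 6.39% for Gpr65, since deeper nuclei hold more UMIs. With the replicate number as a block, 3 genes were called by side in neurons in place of 22 and Asic2 had 0.26 (edgeR, adjusted p = 0.197). Same-numbered left and right pools had correlations of their deviations from -0.08 to 0.15. These values cannot show whether same-numbered pools hold the same rats. The comparison of neurons with endothelial nuclei was not run, since no class was endothelial alone: both vascular clusters also held mural markers. Vascular nuclei are given by their values, with no test. Depth limits Asic4, with 19 UMIs in neurons.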

Other observations

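Values in nuclei that no comparison used are given here. The 3164 mixed nuclei, with markers of neurons and of other cells, had 1258 ± 182.5 CPM of Asic2, 44.09 ± 11.98 of Gpr65, 21.7 ± 6.72 of Asic3 and 8.47 ± 3.39 of Asic1 (SD, n = 12). The 2403 nuclei of clusters neither taken as neurons nor named had 2066 ± 177.1 CPM of Asic2 and 9.76 ± 2.13 of Gpr65 (SD, n = 12). Snap25 was at 1392 CPM in them over all pools together. These nuclei cannot be taken as non-neuronal. A cluster of 435 nuclei was led by genes that include Pappa2, Zmat4 and Csmd3, as was the neuron subcluster n15. Clusters of 501 and 47 nuclei were left unnamed because leading genes of neuron subclusters also led them. The 628 skeletal muscle nuclei, 431 of them in FR2, had 1890.2 CPM of Asic2 and 34.1 CPM of Gpr65 over all pools together, with Snap25 at 1366 CPM.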
